A study of Mus musculus with 2 samples.

Results

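The macrophage lineage transcription factors considered here are *Spi1*, *Cebpa*, *Cebpb*, *Cebpd*, *Maf*, *Zeb2*, *Egr1*, *Egr2* and *Runx1*. They were taken by name from a table of gene expression and make up 9 of its 37451 genes. The table holds 8 of them under these symbols and lists *Spi1* under its older symbol *Sfpi1*. RNA of bone marrow-derived macrophages (BMDMs) was measured by RNA-Seq in 1 library of WT cells and 1 library of ΔM cells. WT BMDMs came from C57BL/6 mice, and ΔM BMDMs from C57BL/6 mice with floxed alleles of the TTP gene (TTP fl/fl) and LysMCre. TTP, encoded by *Zfp36*, is a protein that binds AU-rich elements in mRNAs and promotes their decay. Donors of both genotypes were littermates aged 7 to 9 weeks, and the marrow of both was grown in CSF-1 from L929 cells. All cells, WT included, received 100 µM 4-thiouridine (4sU) for 16 h and then 10 ng/ml lipopolysaccharide (LPS) for 6 h, so that no unstimulated or unlabeled cells enter the comparison.

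The model has limits that bear on every value. LysMCre is expressed from the lysozyme M locus and deletes in cells of the myeloid lineage, and neither a floxed allele nor Cre is given for the WT mice. The levels are FPKMs, that is, fragments scaled to exon length and to the number of mapped fragments, with 1 value per gene and library. There is 1 library per genotype, so a difference has neither a replicate check nor a p-value. The steps between low FPKMs placed the depth at about 36800000 fragments for WT and 32600000 for ΔM. These depths gave each FPKM and each ratio a 95% Poisson counting interval, which covers counting error only. *Zfp36* was at 65.3 FPKM in WT BMDMs (interval 63.2 to 67.4) and at 16.7 FPKM in ΔM BMDMs (15.6 to 17.9), in the direction of the labels.

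Lineage factors decide together which genes a blood cell can use. PU.1, the product of *Spi1*, opens enhancers in myeloid cells, where C/EBP and RUNX proteins bind beside it. MAF, ZEB2 and EGR proteins act on top of this scaffold and tune maturation, tissue identity and the response to stimuli.

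The expression of macrophage genes fitted the label of the cells. All 10 macrophage markers had a mean of at least 1 FPKM, and *Fcgr1*, a receptor for immunoglobulin G, was at 306 FPKM in WT and 329 in ΔM. Among them *Mrc1*, at 5.45 and 11.6 FPKM, was past 1.5-fold higher in ΔM and *Lyz2* past 1.5-fold lower. *Mertk*, at 2.15 and 3.48 FPKM, was past 1.5-fold higher on the plain ratio (1.62) but not after adding 1 FPKM to both values. Of the 10 neutrophil markers, 9 stayed below 1 FPKM in both libraries, and *Ly6g*, *Elane* and *Ngp* were listed at 0 in both. The exception was *S100a8*, which was at 50.7 FPKM in WT and 100.02 in ΔM and held nearly all of the neutrophil sum of 50.8 and 100.65 FPKM. Its partner gene *S100a9* was listed at 0 in both libraries. B cell, dendritic cell, erythroid, mast cell and basophil, and fibroblast markers, 6 genes each, were all below 1 FPKM in both libraries, and each of these lists summed to at most 0.95 FPKM in WT and 0.63 in ΔM. The sum of the 6 T cell markers was 10.6 FPKM in WT and 11.6 in ΔM, with *Lck* at 9.58 and 10.8 FPKM and *Cd3e* and *Cd3g* listed at 0. Among 6 osteoclast markers, *Acp5* was highest with 4.35 FPKM in WT and 5.80 in ΔM, while *Oscar* was listed at 0, and the list summed to 7.19 and 9.34 FPKM. Of the 6, 3 were higher in ΔM and 2 lower. The lower ones were *Dcstamp*, at 0.49 FPKM in WT and 0.10 in ΔM, and *Calcr*, at 0.04 and 0 FPKM. In bulk RNA, fewer cells of a type and less RNA per cell cannot be told apart, and the part of such cells in the values of the lineage factors was not tested.

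The 9 lineage factors spanned a wide range of levels, and WT and ΔM BMDMs shared most of their order. In WT, *Spi1* ranked first, followed by *Cebpb*, *Zeb2*, *Cebpd*, *Maf*, *Runx1*, *Egr2*, *Cebpa* and *Egr1*. In ΔM, *Maf* and *Cebpd* exchanged places and the order was otherwise the same. Counting intervals of neighbors in this order overlapped in 1 case, that of *Cebpa* and *Egr1* in WT. *Spi1* alone made up 73.3% of the summed FPKM of the 9 genes in WT and 74.5% in ΔM. The sums themselves were 774 FPKM in WT and 770.2 in ΔM. Thus the bulk of lineage factor mRNA was *Spi1* in both genotypes.

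**Figure D1:**
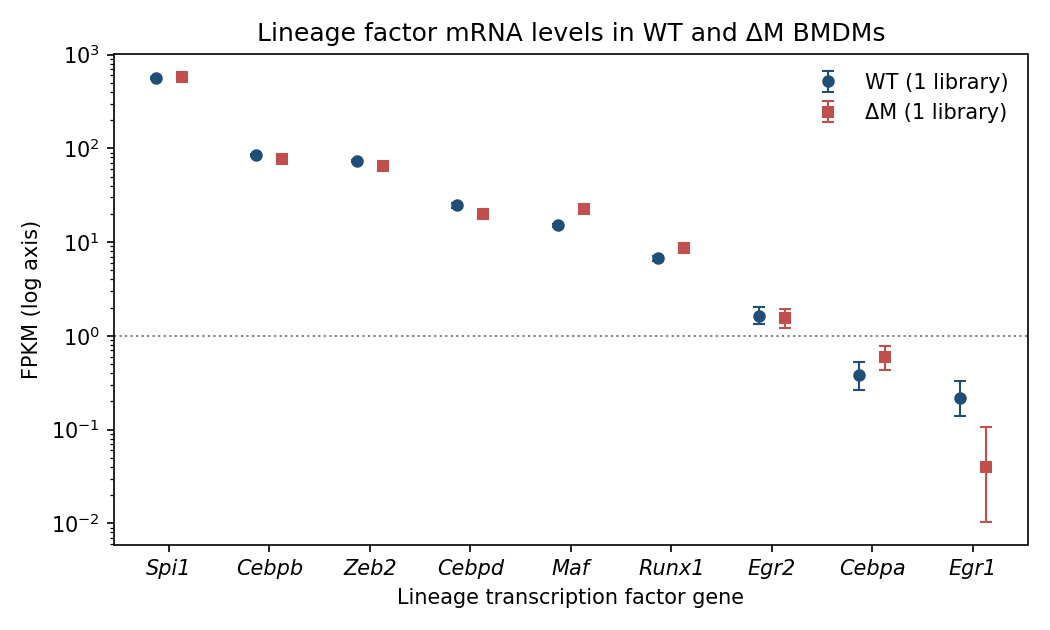
FPKM (log axis) of the 9 lineage factor genes in WT (circles) and ΔM (squares) BMDMs, 1 library each, with 95% Poisson counting intervals as bars and a dotted line at 1 FPKM. *Spi1* lies at the top with 567 and 574 FPKM, and *Cebpa* and *Egr1* lie below the dotted line in both libraries.

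Ratios of ΔM to WT were calculated on the log2 scale after adding 1 FPKM to both values, which understates changes of low genes. The lineage factors were counted where their mean reached 1 FPKM. Of the 7 with a mean of at least 1 FPKM, 0 were past 1.5-fold higher in ΔM, where 4.82% of 8078 protein-coding genes of that level were, and 0 were past 1.5-fold lower, where 5.36% were. In either direction the background share was 10.2%. For 7 genes, counts of 0 are near these background shares and say nothing particular about lineage factors. The log2 ratios of the 7 ranged from -0.30 for *Cebpd* to 0.54 for *Maf*, with a median of -0.06, and the protein-coding genes had a median of 0.00 and quartiles of -0.19 and 0.18. *Cebpa* and *Egr1* had means below 1 FPKM and were not counted. Their plain ratios, without the added 1 FPKM, were 1.55 and 0.182, and both are past 1.5-fold.

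Counting error is a narrower yardstick than 1.5-fold at this depth. The counting interval of the ratio left out 1 for 2 of the 9 genes in the upward direction, *Maf* and *Runx1*, and 24.4% of 8056 protein-coding genes averaging 1 FPKM or more met the same rule. It left out 1 for 4 genes in the downward direction, *Cebpb*, *Cebpd*, *Zeb2* and *Egr1*, which lies below that level. Among the 7 counted lineage factors these were 2 higher and 3 lower, and 26.4% of the protein-coding genes were lower. For the other 3, *Spi1*, *Egr2* and *Cebpa*, a difference was not detectable at this depth. Large parts of the transcriptome therefore differed between the 2 libraries by more than counting error, and with 1 library each a difference of genotype and one of library cannot be told apart.

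*Spi1* (ENSMUSG00000002111) occupies positions 90922547 to 90955913 of mm9 chromosome 2, plus strand. Its product PU.1 is an ETS protein required for the formation of macrophages. *Spi1* was at 567 FPKM in WT BMDMs (counting interval 555 to 580) and at 574 FPKM in ΔM BMDMs (561 to 588). Both intervals overlapped, and the log2 ratio was 0.02. These levels put *Spi1* at percentile 99.5 of the protein-coding genes averaging 1 FPKM or more, in WT, and at percentile 99.6 in ΔM. The FPKM of *Spi1* was 6.69 times that of *Cebpb*, the next lineage factor, in WT and 7.40 times in ΔM. No other annotated gene shares exon sequence with *Spi1* on either strand.

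The C/EBP genes encode leucine zipper proteins that pair with one another and bind the same kind of site. *Cebpb* (ENSMUSG00000056501; chromosome 2, 167514415 to 167515918, plus strand), which serves the inflammatory response of macrophages, was at 84.8 FPKM in WT (82.2 to 87.4) and at 77.6 FPKM in ΔM (75.0 to 80.3). The plain ratio of ΔM to WT was 0.916, with a counting interval from 0.874 to 0.959. The library of ΔM BMDMs was thus the lower one, by less than 1.5-fold. An exon of *Tmem189*, a gene on the opposite strand at 6.44 FPKM in WT and 8.02 in ΔM, overlaps *Cebpb*. Whether reads were counted by strand is not given in the sources used here, so reads of both genes may not have been told apart there. The same limit holds for the opposite-strand overlaps of *Maf*, *Zeb2* and *Runx1* given below.

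*Cebpd* (ENSMUSG00000071637; chromosome 16, 15887379 to 15888559, plus strand) encodes a C/EBP protein that LPS and acute-phase signals induce. It was at 24.6 FPKM in WT (23.0 to 26.3) and at 19.8 FPKM in ΔM (18.3 to 21.4). The counting intervals were apart, and the ratio was 0.807 (0.727 to 0.894). Its log2 ratio of -0.30, the lowest among the counted lineage factors, was at percentile 16.5 of the protein-coding genes. The annotation types *Cebpd* as a pseudogene, and it was kept among the lineage factors but not in the protein-coding background.

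*Cebpa* (ENSMUSG00000034957; chromosome 7, 35904312 to 35906945, plus strand) drives the commitment of progenitors to granulocytes and monocytes. It was at 0.38 FPKM in WT and 0.59 in ΔM, from about 34 and 47 fragments. The ratio of 1.55 had a counting interval from 0.977 to 2.49, so the 2 libraries did not differ beyond counting error. Summed over *Cebpa*, *Cebpb* and *Cebpd*, the level was 110 FPKM in WT and 98.0 in ΔM, and *Cebpb* held 77.2% and 79.2% of it. Among relatives, *Ddit3*, whose product dimerizes with C/EBP proteins under stress, was at 7.82 FPKM in WT and 6.55 in ΔM. *Cebpe*, a factor of late granulocytes, was at 0.08 and 0.06 FPKM. The C/EBP pool of these BMDMs was therefore mostly *Cebpb* in both genotypes.

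*Maf* (ENSMUSG00000055435) occupies positions 118206842 to 118231694 of chromosome 8, minus strand. It encodes c-MAF, a large MAF protein that activates *Il10* in macrophages. *Maf* was at 15.1 FPKM in WT (14.5 to 15.7) and at 22.3 FPKM in ΔM (21.6 to 23.1). The intervals were far apart, and ΔM was the higher library. The ratio was 1.48 with a counting interval from 1.40 to 1.56, which includes 1.5. After adding 1 FPKM to both values the log2 ratio was 0.54, on that scale the largest absolute value among the 9 lineage factors and at percentile 94.1 of the protein-coding genes. On plain ratios *Egr1* and *Cebpa* lay further from 1. A log2 ratio at least as far from 0 was found in 12.4% of these genes. Exon sequence of *Gm15655*, a noncoding gene on the opposite strand, overlaps *Maf* exons, and the level of *Gm15655* was 6.10 FPKM in WT and 9.20 in ΔM. As at *Cebpb*, reads of both genes may not have been told apart there.

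*Maf* has relatives among the small MAF genes, whose proteins lack an activation domain. *Mafk* was at 9.28 FPKM in WT and 14.1 in ΔM, *Maff* at 0.79 and 1.66 FPKM, and *Mafg* at 5.63 and 5.01 FPKM. After adding 1 FPKM their log2 ratios were 0.55, 0.57 and -0.14, within 1.5-fold. The plain ratios of *Mafk* and *Maff* were 1.51 and 2.10, past it. For *Mafg* the ratio was 0.890 (0.682 to 1.16), not detectably different from 1 at this depth.

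*Zeb2* (ENSMUSG00000026872; chromosome 2, 44839154 to 44972915, minus strand) encodes a zinc finger repressor that maintains the identity of tissue macrophages. It was at 73.5 FPKM in WT (71.7 to 75.2) and at 65.6 FPKM in ΔM (63.8 to 67.4). The intervals did not overlap, with ΔM lower at a ratio of 0.893 (0.861 to 0.926). The log2 ratio of -0.16 was at percentile 28.3, well inside the range of the protein-coding genes. Its relative *Zeb1* was at 2.44 FPKM in WT and 1.38 in ΔM, with a log2 ratio of -0.53 and a plain ratio of 0.566, the latter past 1.5-fold, so that *Zeb2* exceeded *Zeb1* by 30.1 times in WT and 47.5 times in ΔM. *Zeb2* exons overlap those of the noncoding gene *Gm13476* on the opposite strand, at 3.17 and 3.04 FPKM. On the same strand they overlap an annotated miRNA gene, *AL929120.1*, which was at 21.2 FPKM in WT and listed at 0 in ΔM, and its part in the *Zeb2* values was not tested.

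The EGR genes encode zinc finger proteins of the immediate early response. *Egr1* (ENSMUSG00000038418; chromosome 18, 35020861 to 35024638, plus strand) is switched on within minutes of a stimulus and soon off again. It was at 0.22 FPKM in WT (0.140 to 0.329), from about 23 fragments, and at 0.04 FPKM in ΔM (0.010 to 0.105), from about 4 fragments. The ratio of 0.182 had a wide counting interval from 0.043 to 0.546, and the log2 ratio after adding 1 FPKM was only -0.23. The table gives *Egr1* a longer span than the annotation used here, with the start at 35019477.

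*Egr2* (ENSMUSG00000037868; chromosome 10, 66998223 to 67004936, plus strand), which is also a marker of alternatively activated macrophages, was at 1.65 FPKM in WT (1.34 to 2.01) and at 1.54 FPKM in ΔM (1.22 to 1.92). The intervals overlapped, and the ratio was 0.933 (0.685 to 1.27). *Egr2* held 85.5% of the summed EGR level in WT and 92.8% in ΔM, where the sums over *Egr1*, *Egr2*, *Egr3* and *Egr4* were 1.93 and 1.66 FPKM. The NAB corepressors that bind EGR proteins were more abundant. *Nab1* was at 32.5 FPKM in WT and 33.0 in ΔM, and *Nab2* at 19.8 and 19.4 FPKM. So at 6 h of LPS the mRNAs of the corepressors outweighed those of the EGR factors in both libraries.

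*Runx1* (ENSMUSG00000022952; chromosome 16, 92601712 to 92826311, minus strand) encodes a RUNX protein that blood stem cells need to arise and that occupies myeloid enhancers with PU.1. It was at 6.72 FPKM in WT (6.36 to 7.09) and at 8.63 FPKM in ΔM (8.20 to 9.08). ΔM was the higher library beyond counting error, at a ratio of 1.28 (1.19 to 1.38). The log2 ratio of 0.32 was at percentile 85.6. *Runx1* held 87.2% of the RUNX level in WT and 90.6% in ΔM, since *Runx2* was at 0.55 and 0.12 FPKM and *Runx3* at 0.44 and 0.78 FPKM. *Cbfb*, the shared partner that stabilizes RUNX proteins on DNA, was at 10.3 FPKM in WT and 11.7 in ΔM, which is 1.54 and 1.35 times the level of *Runx1*. The noncoding gene *Gm16801*, at 0.10 and 0.17 FPKM, overlaps a *Runx1* exon on the opposite strand.

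The relatives and partners of the lineage factors are given here for 28 genes, of which 17 had a mean of at least 1 FPKM. Of these, 1 was past 1.5-fold lower in ΔM, the ETS gene *Gabpa*, which was at 7.05 FPKM in WT and 3.97 in ΔM, with a log2 ratio of -0.70. With 5.36% of the protein-coding genes past it, 1 of 17 says nothing particular about the relatives. The 3 most abundant in WT were *Ets2* at 50.9 FPKM, *Etv6* at 50.2 FPKM and *Nab1*. Beside these ETS genes *Spi1* stood out in level, with 80.0% of the summed FPKM of 11 ETS genes in WT and 80.5% in ΔM.

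Other transcription factors of myeloid cells passed 1.5-fold in 4 of 13 cases, where the background share in either direction was 10.2%. As the list was chosen with earlier results of these data known, this count cannot show an excess. Of 24 listed, 23 were matched, *Irf8* was not analysed here, and 13 had a mean of at least 1 FPKM. *Nr1h3*, the gene of the oxysterol receptor LXRα, was the 1 past 1.5-fold higher, at 7.88 FPKM in WT and 13.1 in ΔM. The 3 past 1.5-fold lower were *Gfi1*, a repressor, at 8.75 FPKM in WT and 3.74 in ΔM, *Bhlhe41* at 1.84 and 0.65 FPKM, and *Batf* at 21.7 and 14.1 FPKM. Their log2 ratios were -1.04, -0.78 and -0.59, and the list had a median of -0.02. The annotation types *Gfi1* as a processed transcript, so it is among the 13 but not in the protein-coding background. The most abundant in WT were *Mitf* at 146 FPKM, *Ikzf1* at 109 FPKM and *Tfe3* at 37.0 FPKM, all below the level of *Spi1*.

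Genes that textbooks place under the lineage factors were mostly within 1.5-fold as well. Of 22 such genes, 21 had a mean of at least 1 FPKM, 3 were past 1.5-fold higher in ΔM and 2 were past 1.5-fold lower, with a median log2 ratio of 0.10. The 5 of 21 stand beside the background share of 10.2%. This list too was chosen with earlier results of these data known, so that count cannot show an excess. *Csf1r*, the receptor of CSF-1 and a target of PU.1 and RUNX1, was at 104 FPKM in WT and 119 in ΔM, a log2 ratio of 0.19. *Itgam*, a PU.1 target that encodes an integrin chain, was at 223 FPKM in WT and 199.9 in ΔM, a log2 ratio of -0.16. Both were within 1.5-fold and, unlike *Spi1*, differed beyond counting error, in opposite directions.

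Other targets had larger ratios in either direction. *Il10*, a target of c-MAF which also has listed TTP sites, was at 45.1 FPKM in WT and 161 in ΔM, a log2 ratio of 1.82. The complement genes *C1qa*, *C1qb* and *C1qc* summed to 339 FPKM in WT and 524 in ΔM, and their log2 ratios were 0.92, 0.58 and 0.53. Of the 3, *C1qa* was past 1.5-fold, and *C1qb* lay at the limit, just past it without the added 1 FPKM. Among genes under C/EBP control, *Ptgs2*, another gene with listed TTP sites, was at 112 FPKM in WT and 208 in ΔM, while *Lcn2* was at 183 FPKM in WT and 91.9 in ΔM. For *Il10* and *Ptgs2*, effects of these factors and of TTP on the mRNA itself cannot be told apart from these FPKMs. The authors followed *Il10* mRNA in both genotypes after a block of transcription. They report that it was more strongly destabilized at 6 h of LPS than earlier. *Saa3*, at 4925 FPKM the most abundant in WT, was at 4816 FPKM in ΔM. Also among the 3 most abundant in WT, *Emr1* was at 380 FPKM in WT and 357 in ΔM. *Lyz2*, the gene that carries Cre in ΔM mice, was at 2481 FPKM in WT and 1356 in ΔM, a log2 ratio of -0.87.

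**Figure D2:**
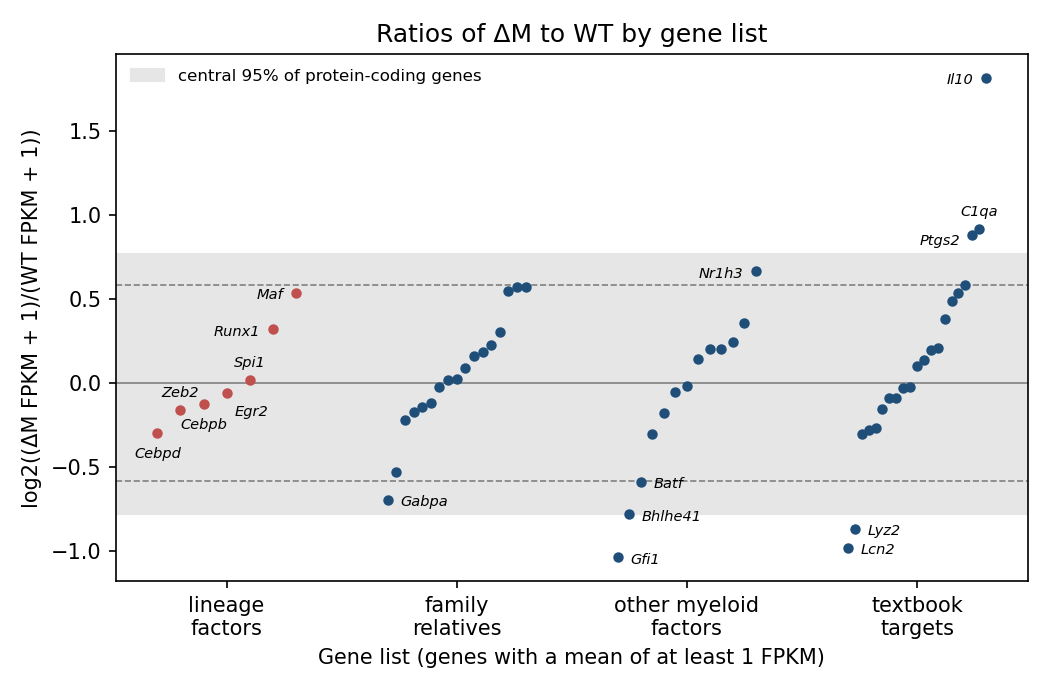
Log2 ratios of ΔM to WT FPKM after adding 1 FPKM (vertical axis) for genes averaging 1 FPKM or more in 4 lists (horizontal axis), 1 point per gene, with dashed lines at 1.5-fold and a grey band over the central 95% of protein-coding genes. The 7 lineage factors lie between -0.30 and 0.54, inside the dashed lines, and *Il10* lies highest at 1.82.

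Because the deleted protein binds AU-rich elements, the 3′ UTRs of the lineage factors were searched for the motifs TATTTAT and ATTTA on the sense strand, each match of the first holding 1 of the second and overlapping matches counted. A match is a description of the sequence and not a site of binding. The longest annotated 3′ UTR was used for 8 of the 9 genes, since *Cebpd* has no annotated coding transcript. TATTTAT was present in 2 of the 8, *Zeb2* and *Runx1*, and in 23.9% of 19999 protein-coding genes with a 3′ UTR. ATTTA was present in 5 of the 8 and in 61.3% of the genes.

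The 3′ UTR of *Zeb2* had 3 matches to TATTTAT and 26 to ATTTA in 4939 nt, and that of *Runx1* had 3 and 14 in 4188 nt. These are long 3′ UTRs, and 2.43% and 4.10% of genes have longer ones. *Maf* had 7 matches to ATTTA in 4316 nt and none to TATTTAT, *Egr2* had 3 in 1200 nt, and *Egr1* had 2 in 1216 nt. *Spi1*, *Cebpa* and *Cebpb* held neither motif, in 362, 1428 and 506 nt. Of the 2 genes with TATTTAT, *Zeb2* was the lower and *Runx1* the higher in ΔM, both within 1.5-fold.

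The sequences around TATTTAT in *Zeb2* and *Runx1* show what such elements look like in lineage factor mRNAs. Capitals mark the motif, and each line gives 30 nt of the sense strand within the 3′ UTR. For *Zeb2*, 2 of its 3 windows are printed, and the window not printed spans 44843058 to 44843087. That window and the first overlap TTP sites that PAR-iCLIP mapped in these cells. Coordinates are those of NCBIM37 (mm9).
*Zeb2*, chr2:44843091-44843120, minus strand: aataacatttTATTTATgtggctcatttta
*Zeb2*, chr2:44842229-44842258, minus strand: tattcaatgtTATTTATaatatgtaacttt
*Runx1*, chr16:92605341-92605370, minus strand: aatccctagaTATTTATgtatcttgatgtt
*Runx1*, chr16:92603353-92603382, minus strand: ttcaagccccTATTTATaattttaacacac
*Runx1*, chr16:92602522-92602551, minus strand: aactcaattgTATTTATgtatgtaaataga

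*Maf* and *Cebpb* have listed TTP sites although their 3′ UTRs hold no TATTTAT, and some short ones are given for comparison. Capitals mark the listed site, in a window of 30 nt from the 3′ UTR. Only listed sites of 11 to 30 nt were considered. None of the sites printed here holds ATTTA, which the *Cebpb* 3′ UTR lacks throughout. T makes up 66.7% to 75.0% of their bases except in the second *Maf* site. Another short *Cebpb* site, at 167515810 to 167515820, is not printed, and T makes up 63.6% of it. The *Maf* windows lie in 1 of its 2 annotated 3′ UTRs, and the *Cebpb* windows in its only one.
*Maf*, chr8:118229092-118229121, minus strand: gtgTTTTATTTTGTTTGGATTTTCTTTttt
*Maf*, chr8:118229174-118229203, minus strand: gccATCAATTGCCTGTATATATATTTTttc
*Cebpb*, chr2:167515719-167515748, plus strand: ggttGTTGATGTTTTTGGTTTTGTTTttgt
*Cebpb*, chr2:167515826-167515855, plus strand: aaagaggcgTATGTATATTTTgagaacctt

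The genes most like *Spi1* and *Maf* were found by the distance of log2(FPKM + 1) over the 2 libraries, among protein-coding genes. For *Spi1* these were *Spp1* at 569 FPKM in WT and 557 in ΔM, *Gbp2* at 555 and 590.5 FPKM, and *H2-D1* at 579 and 556 FPKM. For *Maf* they were *Tmem120a* at 14.8 FPKM in WT and 22.2 in ΔM, *Zfp513* at 15.6 and 22.0 FPKM, and *Chchd7* at 15.0 and 21.4 FPKM. With 2 libraries, likeness means a similar level in each.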

How the data were processed

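RNA was depleted of rRNA and sequenced from 1 library per genotype. The authors trimmed reads with Cutadapt and aligned them with Segemehl to mm9. They used unique alignments only, ran Cufflinks on Ensembl exons and deposited 1 FPKM with 2 decimals per gene. Genes with near-identical copies can therefore read low. No count model was applied to FPKMs, and 1 ΔM value without a number was left out.

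*Spi1* was matched through RefSeq synonyms (GRCm38.p6), and for 4 listed genes with several rows the protein-coding gene with the longest locus was taken. GENCODE M1 (NCBIM37) held 37039 of 37451 identifiers and gave types, strands, 3′ UTRs and median transcript lengths. Depth was the number of fragments and mean fragment length at which low FPKMs of single-transcript genes of 450 to 1000 nt were whole multiples of 1 fragment within 0.006 FPKM. This held for 93.0% of values in WT and 93.9% in ΔM, against 22.5% and 19.8% by chance, with a fragment length of 200 nt in both. Intervals were Poisson (levels) and exact conditional binomial (ratios). For genes with several transcripts they are approximate. The search and the fold calls were tested on simulated data.

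All lineage factors were named, with *Zfp36* and the 3 genes nearest to 2 lineage factors. For the relatives, the other myeloid factors and the targets, the 3 highest in WT were named. So were up to 4 with the largest rise and 4 with the largest fall past 1.5-fold (any gene, where fewer than 6 passed). These had a mean of at least 1 FPKM. Other markers were named for their cell type. The members and lists were chosen with earlier results of these data known. In the list of relatives, 1 gene is not reported here, so no count of higher genes and no median are given for that list. Alternatives covered the pseudocount, fold, minimum level, scaling and 3′ UTRs. Python 3.11.15, numpy 2.4.6, pandas 2.3.3, scipy 1.17.1 and matplotlib 3.10.9 were used.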

Additional observations from a re-analysis of the deposited data

How the results depend on the processing

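No paired analysis was possible because each genotype has 1 library, and no library could be left out. The counts of 0 lineage factors past 1.5-fold stayed at 0 at a fold of 2, with a minimum mean of 10 FPKM or none, with a pseudocount of 0.1 FPKM or none, and under both scalings, each changed alone. With neither minimum nor pseudocount, a setting chosen after seeing the data, 1 was higher (*Cebpa*) and 1 lower (*Egr1*), beside 23.3% and 22.6% of 17349 protein-coding genes above 0 in at least 1 library. With no minimum and 0.1 FPKM, chosen likewise, 1 was lower (*Egr1*), beside 11.5% higher and 10.9% lower of those genes. The median log2 ratio of the 7 counted lineage factors moved by less than 0.1 under these pseudocounts and scalings. Centring on the median of 3039 protein-coding genes averaging 10 FPKM or more shifted log2 ratios by 0.02 and scaling to the protein-coding sum by less. No log2 ratio of the 9 genes changed sign. With 1 FPKM, 0.1 FPKM and no pseudocount that of *Egr1* was -0.23, -1.19 and -2.46, and that of *Cebpa* 0.20, 0.52 and 0.63.

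The background share past 1.5-fold higher was 11.2% over genes of all types, 3.22% with a minimum mean of 10 FPKM, 7.92% with a pseudocount of 0.1 FPKM and 8.55% with none, and that lower was 7.51%, 3.92%, 8.15% and 8.69% in the same order. At a fold of 2, a share added after seeing the data, these were 1.19% and 1.32%. At a fold of 2, the family relatives had 0 lower, the other myeloid factors 0 higher and 1 lower (*Gfi1*), and the textbook targets 1 higher and 0 lower. With a minimum mean of 10 FPKM the family relatives had 0 lower and the other myeloid factors 1 lower. With a pseudocount of 0.1 FPKM or none, also chosen after seeing the data, the family relatives had 2 lower (*Gabpa* and *Zeb1*) and the textbook targets 4 higher, *C1qb* now among them. Depth limits *Egr1*, *Cebpa* and *Egr2* most, which rest on about 4 to 96 fragments per library.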
